A study of Mus musculus with 4 samples.

Results

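The genes described here make the proteins that show peptides to T cells, the class I and class II molecules of the major histocompatibility complex (MHC, called H2 in the mouse). Members were all probe sets of the array that the platform's annotation gives 1 gene symbol, where that symbol is H2-K1, H2-D1, H2-Q10, B2m, Tap1, Tap2, H2-Aa, H2-Ab1, H2-Eb1 or Cd74. The rule found 15 probe sets of these 10 genes among the 12422 probe sets that are not array controls, which name 8251 genes by a single symbol. The class I arm held 11 probe sets of 6 genes, and the class II arm 4 probe sets of 4 genes. All 15 passed the filter on dim signals, 14 of them on all 4 arrays, and none lay at the floor on any array.

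Class I molecules pair a heavy chain (H2-K1, H2-D1) with beta 2-microglobulin (B2m) and carry peptides from inside the cell, which the TAP transporter (Tap1, Tap2) pumps into the endoplasmic reticulum. Nearly all nucleated cells make them, hepatocytes included, and H2-Q10 encodes a class I molecule that the liver secretes into the blood. Class II molecules pair an alpha with a beta chain (H2-Aa with H2-Ab1, and H2-Ea with H2-Eb1), are assembled on the invariant chain (Cd74), and show peptides from taken-up protein. Macrophages, dendritic cells and B cells are the cells known for class II, and Kupffer cells are the macrophages of the liver.

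The RNA was total RNA of whole liver from B6SJL hybrid males aged 50 to 66 days. From weaning all mice had free access for 4 weeks to a diet with 65% protein and 10% carbohydrate. The wild-type group carried no transgene and the PEPCK-TAg group carried a transgene for the SV40 large T and small t proteins, whose name gives the promoter of phosphoenolpyruvate carboxykinase, a gene active in liver and kidney and raised by diets low in carbohydrate. Each group had 2 Affymetrix MG_U74Av2 arrays, and no source used here says whether these came from separate animals. Each p-value therefore measures only the spread between these arrays, which may be technical. Across the arrays the median signal ran from 66.6 to 84.7, and 58.1% to 62.8% of probe sets lay above the filter level of 41.3. Genes of hepatocytes such as Alb and Apoa1 were among the strongest signals on every array. The PEPCK-TAg arrays shared 1 chip lot that no wild-type array had, so lot and genotype cannot be told apart.

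The comparison asks how long exposure to the viral proteins altered the RNA of these genes in liver. Of the 15 member probe sets, 1 rose (H2-Ab1, class II) and 1 fell (H2-Q10, class I) in PEPCK-TAg liver, and 13 did not pass. Over all 7877 probe sets tested, 9.1% rose and 3.4% fell, 12.5% in all, by limma's moderated test at a Benjamini-Hochberg adjusted p of 0.05, so 2 of 15 is close to the share of the whole array. The median log2 difference (PEPCK-TAg minus wild-type) was -0.37 over the 11 class I probe sets, 0.15 over the 4 class II probe sets and 0.051 over all probe sets tested. In bulk liver RNA, fewer cells of a type and less RNA per cell cannot be told apart.

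**Figure D1:**
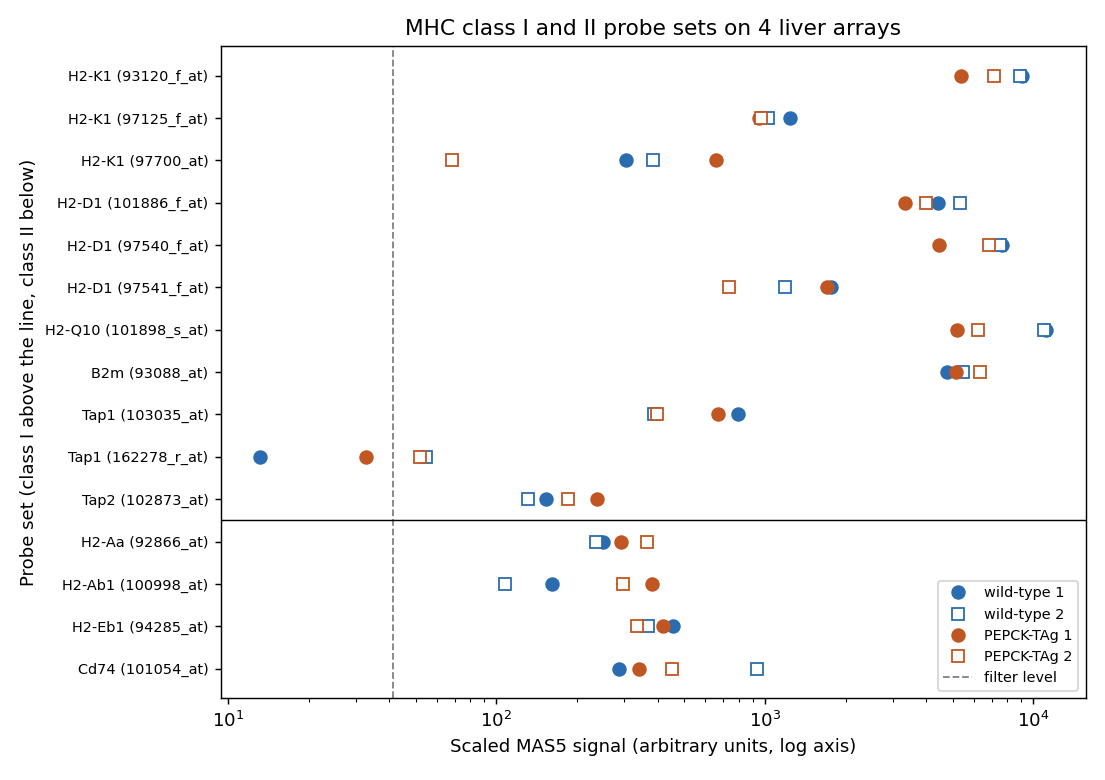
Scaled signal (log axis) of each member probe set on the 4 arrays, with wild-type in blue and PEPCK-TAg in orange. The points of the genotypes stand apart for H2-Q10 (5212 and 6227 against 11168 and 10934) and H2-Ab1 (379 and 297 against 162 and 108), and they mix for B2m, Tap1, H2-Eb1 and Cd74.

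Of the class I heavy chains, H2-Q10 fell in PEPCK-TAg liver, and H2-K1 and H2-D1 did not pass the test. H2-Q10 gave signals of 11168 and 10934 in wild-type liver and of 5212 and 6227 in PEPCK-TAg liver. Both PEPCK-TAg signals lay far below both wild-type signals, and the wild-type pair differed little. H2-Q10 fell 1.94-fold (log2 difference -0.96 ± 0.22 SE, 95% interval -1.48 to -0.43, limma adjusted p = 0.0370). Every such value compares n = 2 arrays with n = 2 arrays. The array pair scanned on the same day (wild-type 1 and PEPCK-TAg 1) gave -1.10. Under quantile normalization the difference shrank to -0.42 and the call ended (adjusted p = 0.103). With any 1 array left out it stayed between -1.08 and -0.83 and did not pass, as no probe set of the array did without a PEPCK-TAg array.

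The other classical heavy chains had 3 probe sets each. H2-K1 probe set 93120_f_at gave signals of 9044 and 8926 in wild-type liver and of 5369 and 7108 in PEPCK-TAg liver. Its groups did not overlap, but the difference did not pass (-0.54 ± 0.24 SE, adjusted p = 0.179). H2-K1 probe set 97125_f_at read 1242 and 1024 against 953 and 970, a smaller difference without overlap (-0.23 ± 0.23 SE, adjusted p = 0.540). H2-K1 probe set 97700_at read 303 and 384 against 657 and 68.1, so that the PEPCK-TAg arrays lay on either side of wild-type. Its log2 difference of -0.69 has a 95% interval from -2.93 to 1.55, and it was 0.95 without PEPCK-TAg 2 and 1.12 in the same-day pair, so this probe set gives no direction.

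H2-D1 probe set 97540_f_at gave signals of 7630 and 7543 in wild-type liver and of 4441 and 6832 in PEPCK-TAg liver (-0.46 ± 0.27 SE, adjusted p = 0.295). H2-D1 probe set 101886_f_at read 4420 and 5352 against 3321 and 3988 (-0.42 ± 0.23 SE, adjusted p = 0.277). Both of these had groups without overlap. H2-D1 probe set 97541_f_at read 1770 and 1191 against 1709 and 734, where the genotypes mixed (-0.37 ± 0.43 SE, adjusted p = 0.592). Over H2-K1, H2-D1 and H2-Q10 together all 7 probe sets had a negative difference, 5 of them with no overlap between groups, where 26.5% of all probe sets tested lay lower without overlap. They are not independent, since 5 of the 7 bear the suffix _f_at and H2-Q10 bears _s_at, by which Affymetrix marks probes that match several transcripts of a family.

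The heavy chains are among the strongest signals of the array, and there the arrays differed as a whole. Of the 122 probe sets tested with a mean signal above 5000, a level chosen after seeing the data, 108 had a negative difference, with a median of -0.54, 24 called lower and none called higher. H2-K1 93120_f_at, H2-D1 97540_f_at and H2-Q10 lie in that range, with a median of -0.54. Quantile normalization moved the median of the 122 to 0.030, that of all probe sets tested from 0.051 to -0.088, and that of the 7 heavy chain probe sets from -0.46 to -0.16. H2-K1 93120_f_at then gave -0.016 and H2-D1 97540_f_at 0.0071, while H2-Q10 kept a negative value. The highest signal of an array was 15878 or 17282 in wild-type liver, but 9389 or 13118 in PEPCK-TAg liver. The part of this shift in the class I differences was not tested.

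**Figure D2:**
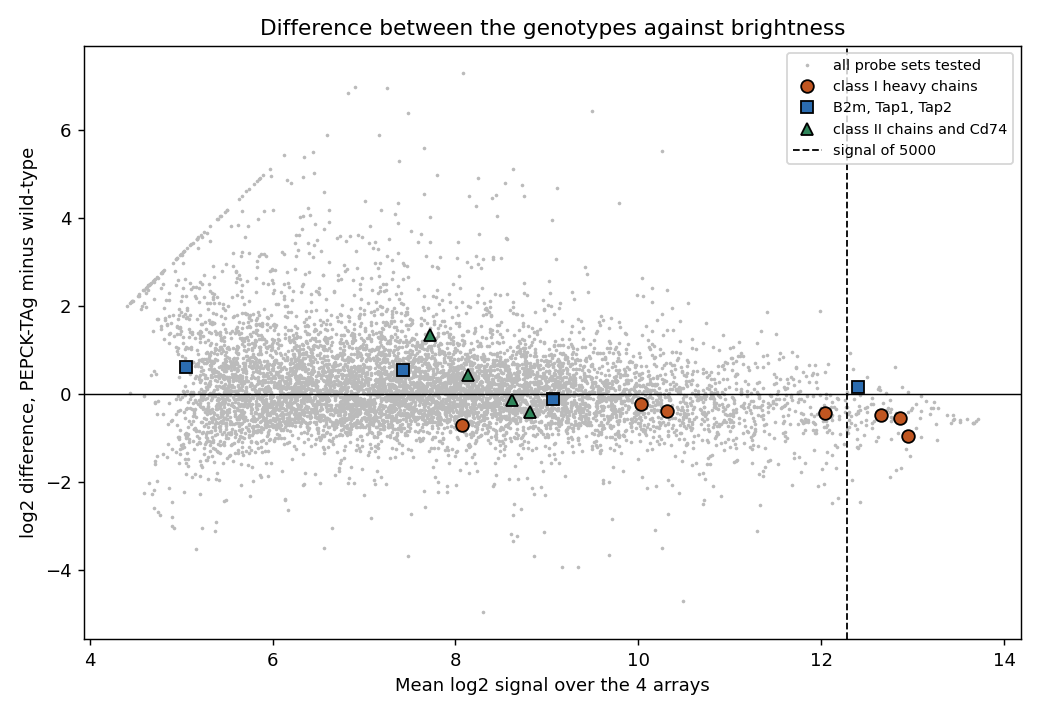
The log2 difference of each of the 7877 probe sets tested (grey) against its mean log2 signal over the 4 arrays, with the members marked and a dashed line at a signal of 5000. Right of the line most points lie below 0 (median -0.54), as do 3 of the 7 heavy chain probe sets, while B2m lies just above 0.

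The upstream sequences of the heavy chain genes are shown to compare their letters. The difference in signal change between H2-Q10 and H2-K1 or H2-D1 was not tested. The windows hold the 200 bases before the annotated start in RefSeq (build GRCm38.p6). Windows were taken for 7 of the 10 members. None was found for H2-Ab1 and Tap2, and Cd74 was left out of the search. Those of H2-K1, H2-D1 and H2-Q10 are, in that order, chr17:34000348-34000547 on the minus strand (the first of 2 starts listed), chr17:35262894-35263093 on the plus strand and chr17:35469889-35470088 on the plus strand. RefSeq's sequence is that of C57BL/6J, so the SJL alleles in these mice may differ. Capitals mark matches, on either strand, to GGGGATTCC (from the kappa B site of class I promoters), GTTTCACTT (from their interferon consensus sequence), GAAANNGAA (from an interferon factor repeat), TGACGTCA and its core TGACG, which overlap (the cyclic AMP element type found in X boxes), and GATTGG (an inverted CCAAT or Y box).

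H2-K1: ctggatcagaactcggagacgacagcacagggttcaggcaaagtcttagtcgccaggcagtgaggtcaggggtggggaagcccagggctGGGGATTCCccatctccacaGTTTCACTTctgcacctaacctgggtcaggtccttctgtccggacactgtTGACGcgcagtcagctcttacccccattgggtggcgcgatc

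H2-D1: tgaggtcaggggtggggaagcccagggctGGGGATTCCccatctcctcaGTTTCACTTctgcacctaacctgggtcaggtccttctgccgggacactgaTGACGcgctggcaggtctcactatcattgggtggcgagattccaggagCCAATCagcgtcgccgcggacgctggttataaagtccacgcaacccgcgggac

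H2-Q10: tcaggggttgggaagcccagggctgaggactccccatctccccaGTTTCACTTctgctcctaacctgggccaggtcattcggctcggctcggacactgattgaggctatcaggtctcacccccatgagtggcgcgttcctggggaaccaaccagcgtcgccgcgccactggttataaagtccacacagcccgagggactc

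H2-K1 and H2-D1 hold the kappa B letters, 111 and 171 bases before their starts, and H2-Q10 does not. All 3 hold the interferon consensus letters, 91, 151 and 156 bases before the start. TGACG stands in the windows of H2-K1 and H2-D1 and not in that of H2-Q10. Of the 32851 windows of this length in the table, 51 hold the kappa B letters (5 of them of H2 genes) and 82 the interferon consensus (10 of them of H2 genes), whereas 15.66% hold TGACG and 12.92% hold GATTGG. Over the whole windows of the table, which also reach past the start, the best local alignment was 90.35% identical between H2-K1 and H2-D1 and 84.16% between H2-D1 and H2-Q10. These matches describe the letters only.

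The light chain gave no difference past the threshold. B2m gave signals of 4780 and 5482 in wild-type liver and of 5133 and 6332 in PEPCK-TAg liver, with mixed groups (0.16 ± 0.23 SE, adjusted p = 0.684). Its 95% interval ran from -0.40 to 0.71, and with quantile normalization the difference was 0.62 (adjusted p = 0.0603). The difference between B2m and the heavy chains was not tested. The 200 bases before the start of B2m (chr2:122147487-122147686, plus strand) are given beside those of the heavy chains, with which B2m is known to share control by interferon.

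B2m: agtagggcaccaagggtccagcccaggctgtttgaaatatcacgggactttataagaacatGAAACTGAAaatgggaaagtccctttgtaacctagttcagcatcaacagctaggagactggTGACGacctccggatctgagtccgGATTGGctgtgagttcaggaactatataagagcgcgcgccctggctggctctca

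B2m holds an interferon factor repeat 139 bases before its start, a motif in 5.568% of all windows, and TGACG and GATTGG nearer to the start. Neither the kappa B nor the interferon consensus letters of the heavy chains are in its window.

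Both subunits of the peptide transporter stayed short of the threshold. Tap2 gave signals of 154 and 131 in wild-type liver and of 237 and 185 in PEPCK-TAg liver, higher in both without overlap (0.56 ± 0.28 SE, adjusted p = 0.237). Its 95% interval ran from -0.12 to 1.24. Tap1 probe set 103035_at read 797 and 388 against 671 and 397, with mixed groups (-0.11 ± 0.42 SE, adjusted p = 0.890). A further Tap1 probe set, 162278_r_at, read 13.2 and 54.7 against 32.6 and 52.0, above the filter level on 1 array of each group only. Its difference of 0.61 (adjusted p = 0.602) turned to -0.41 without wild-type 1.

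Among class II members the beta chain of the A molecule stood apart. H2-Ab1 gave signals of 162 and 108 in wild-type liver and of 379 and 297 in PEPCK-TAg liver. Both PEPCK-TAg signals lay above both wild-type signals, and H2-Ab1 rose 2.54-fold (log2 difference 1.34 ± 0.31 SE, 95% interval 0.60 to 2.09, adjusted p = 0.0385). The same-day pair gave 1.23. Under quantile normalization the difference was 1.12 and the call ended (adjusted p = 0.0711). The call held without wild-type 1 (1.64) and was lost when wild-type 2 (1.05), PEPCK-TAg 1 (1.17) or PEPCK-TAg 2 (1.52) was left out.

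The partner chain and the other class II genes did not pass. H2-Aa, the alpha chain that pairs with H2-Ab1, gave signals of 250.4 and 234 in wild-type liver and of 292 and 364 in PEPCK-TAg liver. These groups did not overlap either, with a smaller difference (0.43 ± 0.26 SE, 95% interval -0.19 to 1.04, adjusted p = 0.309). H2-Eb1, the beta chain of the E molecule, read 455 and 368 against 419 and 335, and the genotypes alternated (-0.13 ± 0.26 SE, 95% interval -0.75 to 0.50, adjusted p = 0.777). H2-Ea, its alpha chain and no member here, had signals of 5.9 to 16.6, all under the filter level. C57BL/6 and SJL, the strains that the name B6SJL usually stands for, are both known to lack the E alpha chain. The difference between H2-Ab1 and H2-Aa or H2-Eb1 was not tested.

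Cd74, the invariant chain, gave signals of 286 and 933 in wild-type liver and of 340 and 451 in PEPCK-TAg liver. Wild-type 2 was far above the other 3 arrays, and both PEPCK-TAg signals lay between the wild-type signals (-0.40 ± 0.53 SE, 95% interval -1.68 to 0.88, adjusted p = 0.652). The direction rests on wild-type 2: without it the difference was 0.45 (adjusted p = 0.416), and without wild-type 1 it was -1.25 and passed (adjusted p = 0.0204). H2-Aa, H2-Ab1 and H2-Eb1 did not share the high reading of wild-type 2, on which each was dimmer than on wild-type 1. That array was the only 1 read on an M10 scanner, and the other 3 were read on an HP scanner.

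**Figure D3:**
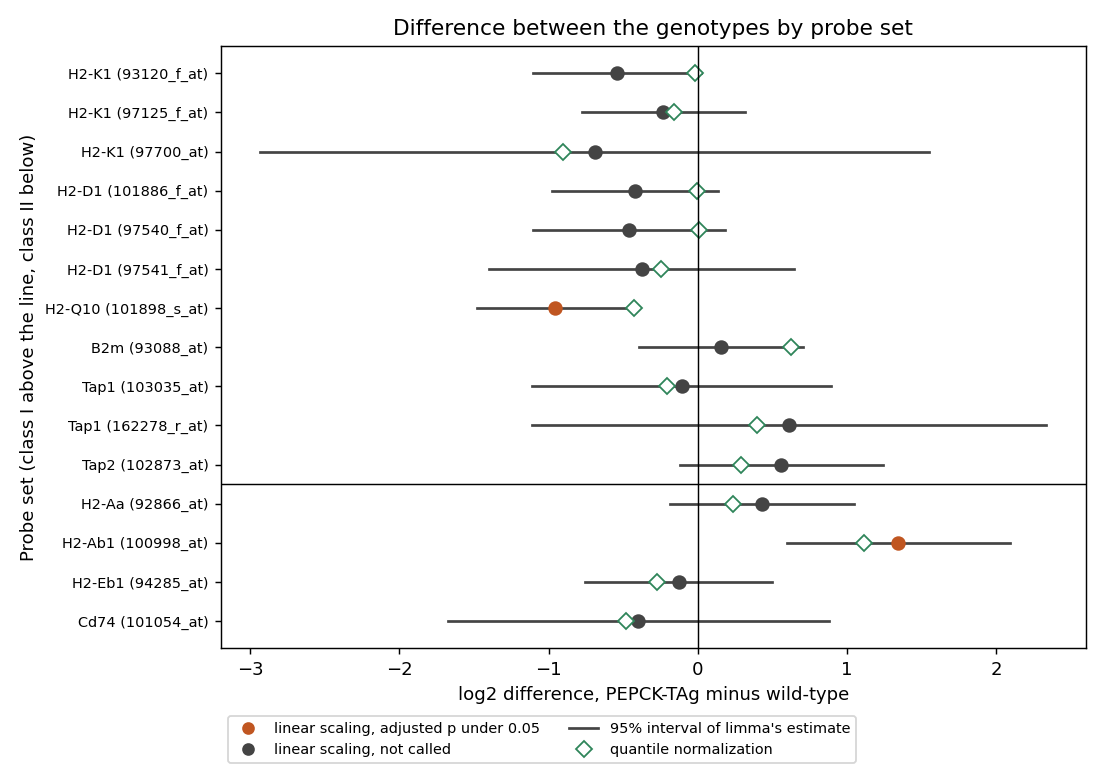
The log2 difference of each member probe set with the 95% interval of limma's estimate (n = 2 arrays per group), and its value under quantile normalization (open diamonds). Only the intervals of H2-Q10 (-1.48 to -0.43) and H2-Ab1 (0.60 to 2.09) leave out 0, and the diamonds of H2-K1 93120_f_at, H2-D1 97540_f_at and H2-D1 101886_f_at lie near 0 while that of H2-Q10 lies at -0.42.

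The class II windows are shown for the X and Y boxes that class II promoters share. H2-Aa lies on the minus strand (chr17:34287824-34288023) and H2-Eb1 on the plus strand (chr17:34305667-34305866), with capitals as above.

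H2-Aa: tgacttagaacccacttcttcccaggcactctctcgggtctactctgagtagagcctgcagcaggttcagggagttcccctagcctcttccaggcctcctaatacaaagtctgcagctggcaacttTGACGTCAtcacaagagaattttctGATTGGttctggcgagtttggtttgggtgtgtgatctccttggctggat

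H2-Eb1: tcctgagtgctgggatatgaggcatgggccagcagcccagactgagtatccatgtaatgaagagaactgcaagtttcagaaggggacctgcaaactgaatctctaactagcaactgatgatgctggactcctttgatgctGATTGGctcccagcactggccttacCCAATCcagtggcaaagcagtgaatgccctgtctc

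H2-Aa holds TGACGTCA 74 bases before its start, as do 1.47% of all windows, and GATTGG 49 bases before it. H2-Eb1 holds GATTGG letters 60 and 35 bases before its start and no TGACG. Neither window holds the kappa B or interferon consensus letters of the class I genes.

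The arms are set side by side here by their signs and overlaps. Of the 11 class I probe sets 3 had a positive difference, and 2 of the 4 class II probe sets did. No overlap between groups was seen for 6 class I probe sets (5 lower and 1 higher) and 2 class II probe sets (both higher), against 59.8% of all probe sets tested (33.3% higher and 26.5% lower). The mean log2 signal of the class I probe sets was 10.34 and 10.40 in wild-type liver and 10.29 and 10.01 in PEPCK-TAg liver. For class II it was 8.07 and 8.25 against 8.47 and 8.48. These means stood apart in opposite directions, for class I only narrowly (10.34 against 10.29 at the nearest arrays). In class II the largest difference was that of H2-Ab1 (1.34), and the groups mixed for H2-Eb1 and Cd74. The difference between the arms was not tested. The class I median was 0.0040 without PEPCK-TAg 2, and the class II median was -0.018 under quantile normalization. The 5 genes outside the lists whose profile over the 4 arrays lay closest to the mean class II profile (each centred on its mean) were Fam98a, Sesn1, Sfr1, Ifrd2 and Memo1, at Euclidean distances of 0.025 to 0.053. None of these 5 passed the test.

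Probe sets shared with relatives were left out of the members. The symbols H2-K1, H2-D1 or H2-Q10 also occur in 3 probe sets that list several genes. The one with 10 symbols, among them H2-K1, H2-D1, H2-K2 and H2-T23, gave signals of 3737 and 5113 in wild-type liver and of 2355 and 3504 in PEPCK-TAg liver (-0.61, adjusted p = 0.213). That of H2-K1, H2-Q7, H2-Q9 and H2-Q10 read 84.7 and 112 against 109 and 86.7, with mixed groups (-0.00086, adjusted p = 0.999), and that of H2-D1 with 4 relatives stayed below the filter level. Of the 18 tested probe sets of the H2 class I family that list no member, 13 had a negative difference, with a median of -0.37, where the 7 heavy chain probe sets had -0.46. None of these 18 passed limma's adjusted p of 0.05 (5 had an unadjusted p under 0.05). H2-K2, a relative of H2-K1, read 6029 and 7120 against 3749 and 4054 (-0.75, adjusted p = 0.0746), with 1 probe set of the _f_at kind.

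Genes that act with the members were taken from lists. Of 9 other class I and class I-like genes tested, none passed (4 with an unadjusted p under 0.05), with a median of 0.12. H2-Bl gave -0.85 (adjusted p = 0.0744), Cd1d1, which presents lipids to NKT cells, -0.90 (adjusted p = 0.123), and H2-Q1 1.07 (adjusted p = 0.136). A probe set that lists both Cd1d2 and Cd1d1, and so was not counted in the list, gave signals of 2747 and 2980 in wild-type liver and of 1054 and 1046 in PEPCK-TAg liver and fell (-1.45, adjusted p = 0.00854). Of 10 genes of peptide supply and class I loading, none passed (2 with an unadjusted p under 0.05), with a median of 0.41. The proteasome activator subunit Psme1 gave 0.64 (adjusted p = 0.134), the chaperone Canx -0.66 (adjusted p = 0.140) and Psme3 -0.57 (adjusted p = 0.248). The immunoproteasome subunits Psmb8, Psmb9 and Psmb10 gave 0.52, 0.39 and 0.44, none of them past the threshold.

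Of 16 genes of class II loading, proteases and transactivators tested, 2 rose and none fell, with a median of 0.20, where 9.1% of all probe sets tested rose. Cathepsin S (Ctss), the protease that trims the invariant chain, gave signals of 858 and 507 in wild-type liver and of 1713 and 1643 in PEPCK-TAg liver. It rose 2.54-fold (log2 difference 1.35 ± 0.30 SE, adjusted p = 0.0339). Legumain (Lgmn), an endosomal protease, read 303 and 194 against 585 and 960, and rose 3.09-fold (1.63 ± 0.35 SE, adjusted p = 0.0307, and 0.0575 under quantile normalization). The endosomal reductase Ifi30 gave 1.57 (adjusted p = 0.0631), the promoter factor Rfxank -0.87 (adjusted p = 0.0990) and the peptide exchange chain H2-DMa 1.17 (adjusted p = 0.113). The class II transactivator Ciita read 49.3 and 71.4 against 35.8 and 49.2, with the nearest arrays of the groups almost level (-0.50, adjusted p = 0.444).

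Interferons are known inducers of both arms. Of 30 interferon signalling and response genes tested, 4 rose and none fell, with a median of 0.37, again beside 9.1% of all probe sets tested. Those 4 were Rsad2, an antiviral enzyme (1.46 ± 0.31 SE, adjusted p = 0.0287), the interferon gamma receptor chain Ifngr1 (1.63 ± 0.35 SE, adjusted p = 0.0315), the myeloid factor Irf8 (1.34 ± 0.32 SE, adjusted p = 0.0434) and the GTPase Gbp2 (1.19 ± 0.29 SE, adjusted p = 0.0438). All 4 calls ended under quantile normalization, which left values of 0.92 to 1.37. The factors Irf1 and Irf9, which act at class I promoters, gave 0.17 and 0.33 and did not pass, and the probe set of Ifng itself read at most 2.7. The antiviral genes Mx1 and Ifit2 gave 2.35 (adjusted p = 0.0541) and 2.83 (adjusted p = 0.0552), each with wild-type 2 at the floor. Mx1 and Cxcl10 passed the filter on the PEPCK-TAg arrays only, and Tyk2 on the wild-type arrays only. Each of these entered the test, and the list's median, through the group where it is high. The GTPase Iigp1 had signals of 5244 and 3817 against 2670 and 1862 (adjusted p = 0.0660).

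Markers of the cells that carry class II are given here by cell type, and the lists were not tested against each other. All 14 Kupffer cell and macrophage markers tested had a positive difference by their brightest probe sets, with a median of 0.82. Of these 3 rose, Lyz2 (2.09), Cd5l (1.97) and Cd14 (1.79), where 9.1% of all probe sets tested rose. Dimmer probe sets of C1qb and Csf1r gave -0.79 and -0.25 (adjusted p = 0.139 and 0.676). Summed signals here take every gene of a list that the array holds, tested or not. For macrophages the sum was 3594 to 4621 for wild-type and 8305 to 8809 for PEPCK-TAg liver, and Marco stayed below the filter level on all arrays. Of 7 dendritic cell markers 2 rose beside that same 9.1%, Cd24a (5.12), which other cells also make, and Cd83 (2.45). Cd83 had both wild-type arrays under the floor and passed the filter on the PEPCK-TAg arrays only. Xcr1 gave -0.77, Ly75 1.12 and Itgax 0.33, none of them past the threshold. The list's summed signal was 708 and 682 against 2663 and 3452, and without Cd24a it was 648 and 606 against 694 and 686. Of 6 B cell markers tested none passed (1 with an unadjusted p under 0.05), with a median of -0.42. The summed signal of the whole B cell list was 681 and 604 against 512 and 522. Ighm gave -0.95 by its brightest probe set and 0.95 by another tested (adjusted p = 0.101 and 0.204), Ms4a1 gave -0.65 and Cd79a -0.56, and 5 of the 12 B cell genes on the array, Cd22 among them, were below the filter level on every array. The part of these cells in the values of H2-Ab1, Ctss and Lgmn was not tested.

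Other cell types also differed beside the members. Of 10 granulocyte markers 8 rose (S100a9, Ngp, S100a8, Camp, Ltf, Lcn2, Mpo and Prtn3), where 9.1% of all probe sets tested rose. A dimmer Lcn2 probe set lay the other way, at 113 and 94.0 against 67.2 and 90.3 (-0.40, adjusted p = 0.450). S100a9, Ngp, S100a8, Mpo and Prtn3 passed the filter on the PEPCK-TAg arrays only, so they entered the test through the group where they are high. The list's median of 4.51 takes members at the floor at their bound, and its summed signal was 708 and 555 against 7547 and 11711. Of 10 genes of all white blood cells 5 rose beside that same 9.1%, Tyrobp (2.14), Cd53 (2.58), Cd48 (1.83), Coro1a (2.24) and Ptprc (2.63). Cd53, Cd48 and Ptprc likewise passed the filter on the PEPCK-TAg arrays only. Of the 10 genes 9 had a positive difference. Lcp1 went the other way without overlap, with signals of 895 and 800 in wild-type liver and of 652 and 606 in PEPCK-TAg liver (-0.43, adjusted p = 0.254). The list's summed signals were 1823 and 1728 against 2989 and 2733. Of 3 T and NK cell markers tested none passed (Cd4 gave -0.93, the 1 with an unadjusted p under 0.05), 12 of the 16 on the array, Cd3e and Cd8a among them, were below the filter level throughout, and the summed signal ran from 290.1 to 354. Of 9 hepatocyte genes Ttr and Tat fell (-1.76 and -1.24), where 3.4% of all probe sets tested fell. The other way, 2 of the 9 had a positive difference. These were Fgb (0.52, groups without overlap, adjusted p = 0.185) and Apob (0.40, mixed groups, adjusted p = 0.422), neither past the threshold. The median of the 9 genes was -0.56, with summed signals of 80031 and 81716 against 48625 and 61381. Alb, the most familiar of them, gave -0.56 (adjusted p = 0.192) and lies in the same range of strong signals as H2-Q10. The part of these cells in the class I values was not tested.

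**Figure D4:**
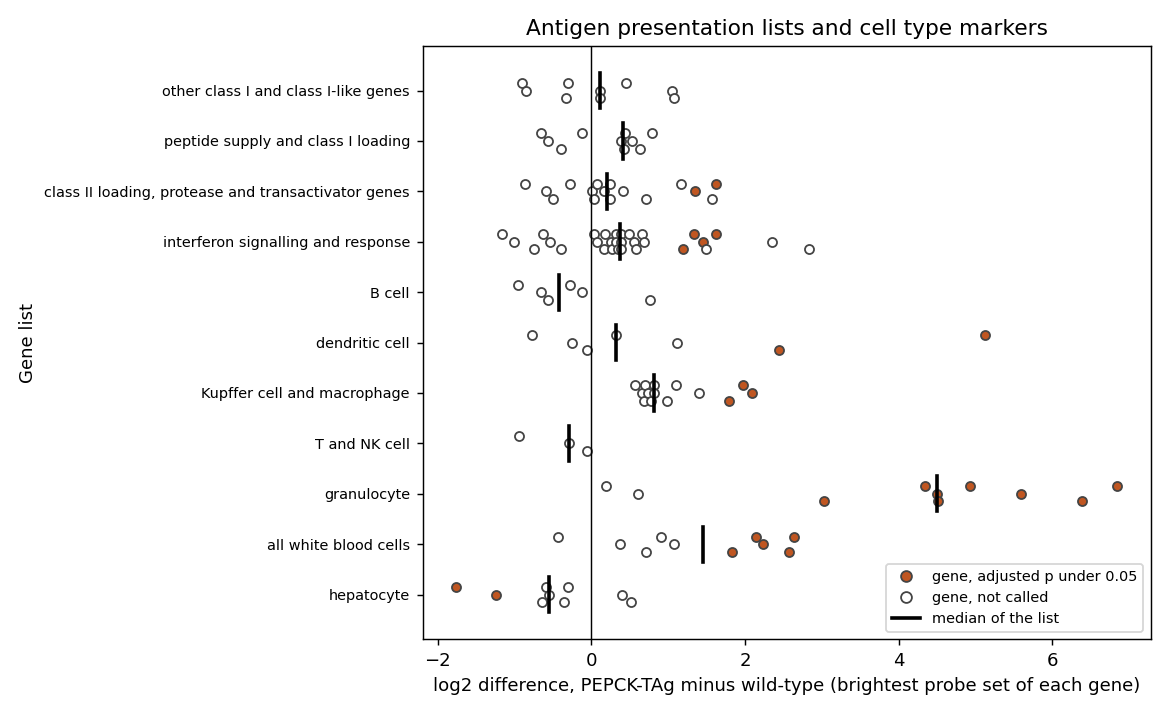
The log2 difference of each listed gene (brightest probe set, filled where the adjusted p is under 0.05) with the median of its list as a bar. The 14 macrophage markers all lie right of 0, 1 of the 6 B cell markers does, and the class I loading genes lie on both sides with none filled.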

How the data were processed

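Per the submitters' processing notes the signals came from MAS5 (no version named there). Each array was deposited as linear intensity values, 1 for every probe set, already scaled so that the trimmed mean over all 12488 probe sets was 250.1 to 250.2 on each array. Instrument files, deposited per array with no expression values, gave station, scanner, lot and scan day.

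The 66 controls were left out, arrays were scaled linearly to 1 trimmed mean (2% from each end), values under 10.6 (the 20th percentile over all arrays) were set to 10.6, and the test used log2 values. Testing needed 2 of the 4 arrays above 41.3 (the 40th percentile), which left 7877 probe sets. limma 3.58.1 in R 4.3.3 (eBayes with trend, two-sided, 6.60 degrees of freedom in all) compared the groups, with Benjamini-Hochberg adjustment over all 7877. On simulated data the procedure recovered the size of the differences put in. It called none of them where each probe set's own SD was taken as the truth, and with moderated SDs it called most of the larger and few of the smaller ones, so a missed threshold says little. With 2 arrays against 2 the smallest p of an exact permutation test is 0.333. The number of arrays limits the precision.

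Symbols came from the platform annotation, which gives 1 symbol for 10833 probe sets, several for 396 and none for 1193. Lists used the brightest probe set of each gene. Summed signals added, on each array, the highest single-symbol probe set of every listed gene, tested or not. Named were all members, every called gene of a list, up to 3 others of smallest p per pathway list, the smallest p of each marker list (up to 3), the 5 nearest profiles, and a few genes chosen after their values were seen (H2-Ea, H2-K2, Cd1d2, Ly75, Itgax, C1qb, Csf1r, Ciita, Ifng, Irf1, Irf9, Cxcl10, Tyk2, Lcp1, Alb, Fgb, Apob, Marco, Cd22, Cd3e, Cd8a and the immunoproteasome subunits). The members and lists were chosen with earlier results of these data known. Motifs were chosen after the windows were read. Settings varied were scaling, floor, filter, arrays, blocks, the eBayes options and the threshold.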

Additional observations from a re-analysis of the deposited data

How the results depend on the processing

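Every member's difference kept its direction under the deposited values without scaling, the floor at the 10th percentile, a pseudocount in place of the floor, a filter at the 60th percentile (where a probe set still passed it), eBayes with a robust fit and the adjusted p of 0.1. The count of member calls, 2, became 0 under quantile normalization, the floor at the 40th percentile, no filter, the fluidics station as a block, the scanner type as a block and eBayes without a trend, and so did the class I count of 1 and the class II count of 1. With single arrays left out, member calls ran from 0 to 2, class I calls from 0 to 0 and class II calls from 0 to 2, the last without wild-type 1. Over the settings that give a test, H2-Q10 lay between -1.08 and -0.42 (adjusted p 0.0187 to 0.241; -1.10 by scan day) and H2-Ab1 between 1.05 and 1.64 (adjusted p 0.00655 to 0.336). Whole-array calls, 985, were 165 with no filter, 1621 at an adjusted p of 0.1 and 0 with the station as a block (1432 with an unadjusted p under 0.05), and 0 to 1449 with single arrays left out (0 without either PEPCK-TAg array, 1012 without wild-type 2, 1449 without wild-type 1). The replicate block gave 1873 calls, left H2-Q10 and H2-Ab1 called, and gave 3, 4 and 7 calls for the other class I, class II loading and interferon lists; the labels do not say that a number marks a pair, the number 1 arrays share a scan day, station and scanner and the number 2 arrays share none of these, and deviations of same-numbered arrays correlated at r = 0.253 over probe sets. The other class I list (0 calls) had 2 with the scanner block, 1 at 0.1 and 0 to 2 with arrays left out. The class I loading list (0) had 1 with the scanner block and 0 to 2 with arrays left out. The class II loading list (2) had 0 with no filter, the station block and eBayes without a trend, 1 with the scanner block, 4 at 0.1 and 0 to 4 with arrays left out. The interferon list (4) had 0 under quantile normalization, no filter and the station block, 2 with eBayes without a trend, 7 at 0.1 and 0 to 11 with arrays left out. The class I median moved to -0.016 under quantile normalization and 0.0040 with the station block, and ran from -0.47 to 0.0040 with arrays left out; the class II median was -0.018 under quantile normalization and 0.15 to 0.42 with arrays left out. Signs turned for H2-D1 97540_f_at (0.0071, quantile) and, with the station block or without PEPCK-TAg 2, for H2-D1 97541_f_at (0.23; -0.98 to 0.23 with arrays left out), H2-K1 97700_at (0.95, and 1.12 by scan day; -2.33 to 0.95), Tap1 103035_at (0.27, and 0.41 without wild-type 1; -0.63 to 0.41) and H2-Eb1 (0.033, and 0.025 without wild-type 1; -0.29 to 0.033). They also turned for Tap1 162278_r_at (-0.037 with the floor at the 40th percentile, -0.41 to 1.64 with arrays left out, the lowest without wild-type 1) and Cd74 (0.45 with the scanner block or without wild-type 2, 0.25 by scan day; -1.25 to 0.45). The cause of these changes was not tested, except that fewer arrays or a block leave fewer degrees of freedom, and the scan day block leaves none, so it gives values only.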
